A study of Mus musculus with 16 samples.

Results

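The genes described here are 9 proneural and Notch pathway genes, Neurog2, Neurog1, Eomes, Neurod1, Insm1, Hes5, Hes6, Dll1 and Dll3, found by their symbols among 16228 genes in mouse fetal brain RNA-seq tables. They were chosen by measured values: earlier results from these tables had genes of newborn neurons, with Neurog2 and Eomes among them, lower in the hippocampus after prenatal enrichment, so that contrast is given for them as a description with no test. Of the 9, 8 have a value in every library, and Neurog1 was not analysed here. All samples were wild-type brain tissue of embryonic day 18.5, from pregnancies kept in an enriched environment (EE) or in standard habitation (SH). The groups are hippocampus EE with 3 libraries, hippocampus SH with 3, cortex EE with 5 and cortex SH with 5. The labels name no dam, litter or fetal sex and do not say whether 1 library holds 1 fetus, so the p-values below measure only the spread between these libraries.

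In the fetal forebrain, proneural transcription factors push progenitors towards becoming neurons and at the same time switch on Delta ligands. A Delta ligand on 1 cell binds a Notch receptor on its neighbour, the receptor is cut, and its inner part joins the DNA-binding protein RBPJ to switch on Hes genes, whose products repress proneural genes and keep the neighbour a progenitor. At this age the dentate gyrus of the hippocampus is still making granule neurons, whereas most excitatory neurons of the cortex have already been born.

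Each family of factors here is known to bind short motifs, which the letters of a promoter can be searched for. The promoters of a pair of Hes genes, of Neurog2 and of Eomes are shown as examples, picked with the values below known. They are RefSeq sequences of build GRCm38.p6, each the 250 bases before and 50 bases from the start of transcription, and RefSeq had such a window for 8 of the 9 genes. Capitals in the Hes5 promoter (chr4:154960673-154960972, plus strand) mark TGGGAA on either strand, the core that RBPJ binds, which 25.6% of 32851 mouse promoters hold:
Hes5: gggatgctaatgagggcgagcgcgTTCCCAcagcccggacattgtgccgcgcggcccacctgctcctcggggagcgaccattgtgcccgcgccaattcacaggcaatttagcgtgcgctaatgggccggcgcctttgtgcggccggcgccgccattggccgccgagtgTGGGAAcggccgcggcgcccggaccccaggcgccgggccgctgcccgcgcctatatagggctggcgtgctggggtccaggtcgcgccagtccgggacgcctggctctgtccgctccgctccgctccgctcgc
Capitals in the Hes6 promoter at the annotated gene start (chr1:91413989-91414288, minus strand) mark CAGNTG on either strand, an E-box of the kind bound by proneural factors, held by 51.4% of promoters and by Hes5 in 1 copy:
Hes6: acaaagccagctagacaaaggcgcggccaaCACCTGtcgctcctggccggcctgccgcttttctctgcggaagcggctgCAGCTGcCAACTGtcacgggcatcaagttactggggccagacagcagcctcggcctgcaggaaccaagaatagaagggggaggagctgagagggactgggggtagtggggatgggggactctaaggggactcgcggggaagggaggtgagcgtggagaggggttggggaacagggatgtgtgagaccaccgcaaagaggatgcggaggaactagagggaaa
Capitals in the Neurog2 promoter (chr3:127632886-127633185, plus strand) and the Eomes promoter (chr9:118477939-118478238, plus strand) mark CACNAG on either strand, an N-box of the kind bound by Hes repressors, which 42.5% of promoters hold:
Neurog2: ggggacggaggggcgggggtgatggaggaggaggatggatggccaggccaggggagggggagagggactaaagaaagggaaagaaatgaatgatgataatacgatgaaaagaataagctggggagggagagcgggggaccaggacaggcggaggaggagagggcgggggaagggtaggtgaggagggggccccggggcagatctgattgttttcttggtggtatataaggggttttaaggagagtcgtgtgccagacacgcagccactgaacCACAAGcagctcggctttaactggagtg
Eomes: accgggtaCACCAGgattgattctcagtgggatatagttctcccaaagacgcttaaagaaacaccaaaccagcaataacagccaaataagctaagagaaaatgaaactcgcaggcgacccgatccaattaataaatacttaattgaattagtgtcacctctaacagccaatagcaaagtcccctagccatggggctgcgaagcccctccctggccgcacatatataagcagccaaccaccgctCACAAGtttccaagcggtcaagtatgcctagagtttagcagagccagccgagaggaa
The Hes5 window held 2 RBPJ cores and the Hes6 window shown none, and the Hes6 window shown held 3 E-boxes. Another RefSeq window of Hes6 (chr1:91413173-91413472, minus strand), not shown, held 1 such E-box and no RBPJ core. The Neurog2 window held 1 N-box and the Eomes window held 2 N-boxes. Neither held CAGNTG, and neither held CACGNG, another motif of the kind bound by Hes repressors, which 27.5% of promoters hold. The motif in capitals was set for each gene. A match is a description of the letters, not a binding site.

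Values are FPKM, read numbers scaled to transcript length and library depth, so levels of different genes can be set side by side. The tables fall into 3 sets that list different numbers of genes: hippocampus, cortex replicates 1 to 3, and cortex replicates 4 and 5. Whole reads recovered from the FPKM steps came to between 11708517 and 12487848 per library in cortex replicates 4 and 5. In the other libraries they came to between 15658652 and 21390710. These numbers are lower bounds, since reads are recovered only up to a factor common to a gene in its set. The low members rest on few recovered reads, 52 to 177 for Neurog2 in cortex and 42 to 202 for Dll3 in all libraries. In cortex replicates 4 and 5 Hes5 had 42 to 74 recovered reads in SH and 144 to 163 in EE, again lower bounds. Cortex SH replicate 3 stood apart, with a summed FPKM of 510540 against 338885 to 395736 in the other 15 libraries. Its summed FPKM over 8 meningeal markers was 2437, against 521 to 1414 in the other cortex libraries, and over 5 red blood cell genes 4072, against 869 to 1798. All 8 hippocampal and dentate markers rose in hippocampus, Prox1 among them at 12.2 ± 5.22 FPKM in hippocampus and 2.42 ± 0.55 FPKM in cortex (SD, n = 6 each), and 7 markers of cortical projection neurons summed to 346 to 508 FPKM in hippocampus and to 345 to 426 FPKM in cortex of replicates 1 to 3. Differences below are EE minus SH, or hippocampus minus cortex, on the log2(FPKM + 1) scale with the SE of limma's moderated fit, and a gene passed where its p, adjusted over all genes tested by Benjamini and Hochberg, was at most 0.05.

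The first comparison asks what prenatal enrichment did to these genes. In EE brains Neurog2 was the member with the lowest level relative to SH in the hippocampus and in cortex replicates 1 to 3, at 0.62 and 0.48 of the SH mean. Neurog2 and Eomes were the only members lower in EE in the mean of all 3 sets, a pattern that 14.5% of 12652 genes shared. Hippocampus is 1 of these sets, and lower values of these genes there had led to the choice of members. The pattern is therefore a description and no separate evidence. Neurog2 did not pass the test in cortex. Hes5 rose in EE in cortex replicates 4 and 5, where it was 2.63 times the SH mean, and was at 0.64 of the SH mean in cortex replicates 1 to 3. No ligand gene passed in any cortex set.

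Neurog2, on mouse chromosome 3 (chr3:127633135-127635631, 2 exons, mm10), encodes a basic helix-loop-helix factor that specifies excitatory neurons. In the hippocampus it was at 8.65, 10.8 and 6.79 FPKM in EE, against 14.45, 12.7 and 15.0 FPKM in SH. Every EE library lay below every SH library, and the difference was -0.65 ± 0.16, a contrast that the choice of genes had used. Over all genes 7.33% were separated in that direction, and 0.0% of 13324 genes passed in either direction by limma, with 503 at an unadjusted p under 0.05 and none passing by limma-voom on recovered reads. In bulk tissue, fewer cells that express a gene and less RNA per cell cannot be told apart. Choroid plexus, which makes cerebrospinal fluid and lies against the hippocampus, varied widely between libraries: the 6 of its 9 markers with a value in every library summed to 5123, 10574 and 47.7 FPKM in EE and to 17063, 45.8 and 161 FPKM in SH. The 7 of 8 hippocampal markers with a value in every library summed to 60.2, 65.5 and 39.2 FPKM in EE and to 60.0, 77.3 and 58.7 FPKM in SH, and the part of either list in the Neurog2 difference was not tested.

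In cortex replicates 1 to 3, Neurog2 was at 1.49, 1.66 and 1.55 FPKM in EE, against 4.19, 3.32 and 2.20 FPKM in SH. The groups did not overlap, as for 18.7% of all genes in that direction, and Neurog2 was the only 1 of 8 members so placed. The difference of -0.70 ± 0.19 missed the threshold (limma, unadjusted p = 0.00656, adjusted p = 0.414), in a comparison in which 0.0% of genes passed. In cortex replicates 4 and 5 Neurog2 was at 2.31 and 2.02 FPKM in EE, against 3.32 and 1.903 FPKM in SH. There the groups overlapped, and the difference was -0.16 ± 0.23. Over all 10 cortex libraries, with a term for the set, the difference was -0.48 ± 0.17 (limma, adjusted p = 0.51), and 0.00799% of genes passed, which is 1 gene. Leaving out cortex SH replicate 3, the library that stood apart, took Neurog2 in replicates 1 to 3 to -0.88 with an adjusted p of 0.0343 by limma. Over all 12 alternatives that adjusted p ranged from 0.0343 to 0.691, and with trends on GC content, mean level and length of the transcript removed the difference was -0.46. The same 7 hippocampal markers summed to 16.9, 15.98 and 14.6 FPKM in these EE cortex libraries and to 16.9, 15.0 and 10.4 FPKM in the SH libraries, groups that overlapped.

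A list of other neurogenic factors and genes of intermediate progenitors and newborn neurons, 25 genes in all, was read beside the members. In hippocampus the median EE difference of its 23 tested genes was -0.17, against -0.01 over all genes. Of the 23, 19 were negative, where 52.8% of all genes were negative, and none passed. Genes of newborn neurons being lower in that contrast is what led to the choice of the members, so this count is a description and no separate evidence. Tcf4, an E protein that pairs with proneural factors, had the smallest p of the list there, at 33.9 ± 3.56 FPKM in EE, against 43.9 ± 7.84 FPKM in SH (SD, n = 3 each; limma, adjusted p = 0.9996). All 14 genes of G2 and M phase were likewise negative in EE hippocampus (median -0.23) and none passed. Their sums overlapped, at 108 to 154 FPKM in EE and 119 to 193 FPKM in SH. Of 10 S phase genes 7 were negative there, with a median of -0.01, near that over all genes, and none passed. Some lists were positive throughout in EE hippocampus: 9 choroid plexus markers (median 1.05), 8 microglial markers (0.23) and 5 red blood cell genes (0.35), with none passing. Radial glia genes were split evenly, 6 positive and 6 negative. The part of any of these lists in the Neurog2 difference was not tested. In cortex replicates 1 to 3, where 10 of 21 tested neurogenic genes were negative, none passed. Mxd3, a repressor of the Myc network, had the smallest p of the list there, at 3.13 ± 0.64 FPKM in EE, against 6.44 ± 2.04 FPKM in SH (SD, n = 3 each; limma, adjusted p = 0.414). The 9 ventral progenitor and interneuron genes with a value in every library summed to 76.9, 69.5 and 105 FPKM in EE hippocampus and to 88.8, 111 and 78.5 FPKM in SH hippocampus, groups that overlapped.

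**Figure D1:**
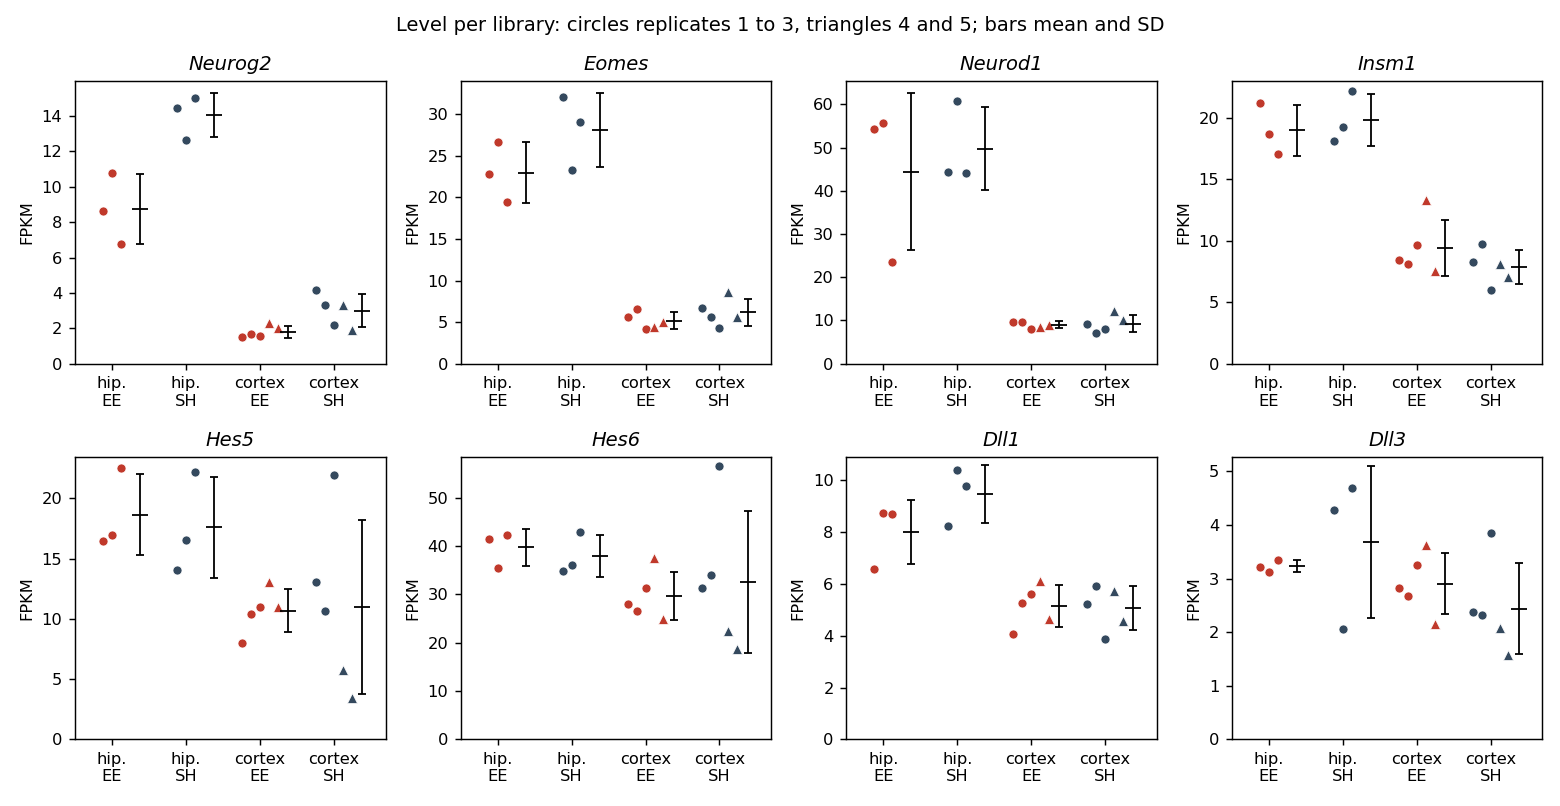
FPKM of the 8 members in each library, by tissue and housing (hip., hippocampus). Circles are replicates 1 to 3, triangles replicates 4 and 5, and bars the mean and SD. Neurog2 lies lower in every EE library than in every SH library in hippocampus, while the Hes5 and Hes6 points of cortex SH spread from 3.41 to 21.9 and from 18.7 to 56.5 FPKM.

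Neurod1 (chr2:79452521-79456751, 2 exons), a helix-loop-helix factor that acts after the neurogenins in newborn neurons and is needed for dentate granule cells, did not pass in any cortex set. In hippocampus it was at 54.3, 55.6 and 23.5 FPKM in EE, against 44.4, 60.8 and 44.2 FPKM in SH. EE replicate 3 was the low library, and the groups overlapped. In cortex replicates 4 and 5 Neurod1 was at 8.45 and 9.06 FPKM in EE and at 12.2 and 10.02 FPKM in SH, and Eomes at 4.42 and 4.997 FPKM in EE and at 8.58 and 5.68 FPKM in SH. Both were separated downwards there, as were 24.9% of all genes, and neither passed (limma, adjusted p = 0.507 for Neurod1 and 0.24 for Eomes). In cortex replicates 1 to 3 Neurod1 was instead the member with the highest EE level relative to SH, by 0.16 ± 0.14, with overlapping groups. Neurod1 shares exon bases with Cerkl on the same strand. Cerkl was at 0.121 to 0.459 FPKM in hippocampus and had no value in any cortex library. Its part in the Neurod1 values was not tested.

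Eomes, also called Tbr2 (chr9:118478212-118486132, 6 exons), is a T-box factor that marks intermediate progenitors, the dividing daughters of radial glia. In hippocampus it was at 22.9, 26.7 and 19.4 FPKM in EE, against 32.0, 23.3 and 29.1 FPKM in SH. The groups overlapped, and the difference was -0.28 ± 0.16. In cortex replicates 1 to 3 EE and SH averaged 5.47 ± 1.25 and 5.52 ± 1.23 FPKM (SD, n = 3 each). Insm1 (chr2:146221921-146225020, 1 exon), a zinc-finger factor that promotes the formation of basal progenitors, differed by -0.06 ± 0.12 in hippocampus, at 17.0 to 21.2 FPKM in EE, against 18.1 to 22.2 FPKM in SH. In cortex Insm1 was 0.23 ± 0.16 higher in EE over all 10 libraries and did not pass (limma, adjusted p = 0.78). Its lowest, median and highest values were 7.57, 8.46 and 13.3 FPKM in the 5 EE cortex libraries and 6.02, 8.11 and 9.77 FPKM in the 5 SH cortex libraries, and EE replicate 4 was the highest.

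Dll1 (chr17:15367354-15376872, 11 exons), the main Delta ligand of neural progenitors, was at 6.59, 8.74 and 8.70 FPKM in EE hippocampus, against 8.23, 10.4 and 9.77 FPKM in SH hippocampus. The ranges overlapped, with a difference of -0.22 ± 0.14, and over the cortex libraries, at 4.07 to 6.11 FPKM in EE and 3.88 to 5.93 FPKM in SH, the difference was 0.02 ± 0.13 (limma, adjusted p = 0.974). Dll3 (chr7:28293553-28302238, 9 exons), which is known to stay inside the cell that makes it and not to activate Notch on neighbours, was at 3.13 to 3.35 FPKM in EE hippocampus, within the SH range of 2.06 to 4.69 FPKM. Cortex replicates 1 to 3 had Dll3 at 2.82, 2.68 and 3.26 FPKM in EE, against 2.38, 2.32 and 3.85 FPKM in SH, with SH replicate 3 the highest. In replicates 4 and 5 it was at 3.63 and 2.15 FPKM in EE, against 2.08 and 1.58 FPKM in SH, and did not pass (limma, adjusted p = 0.303).

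**Figure D2:**
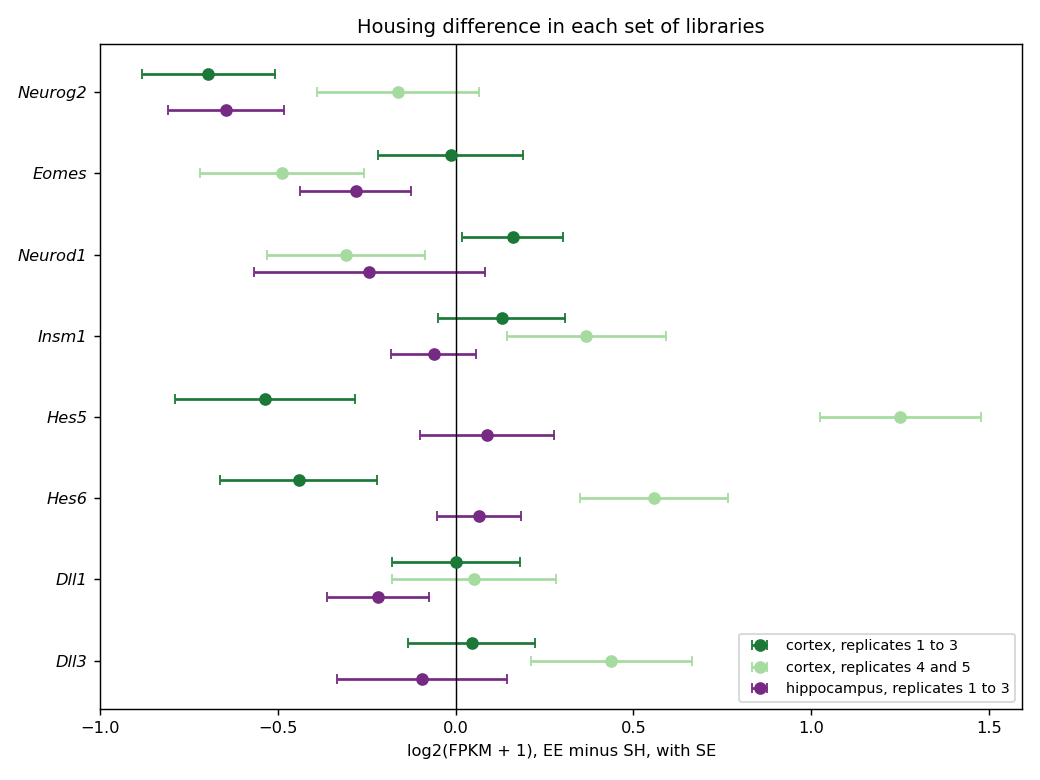
EE minus SH difference of each gene in log2(FPKM + 1), with its SE, in cortex replicates 1 to 3 (dark green), cortex replicates 4 and 5 (light green) and hippocampus (purple). Neurog2 lies between -0.70 and -0.16 in all 3 sets, and Hes5, Hes6 and Neurod1 lie on opposite sides of 0 in the cortex sets.

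Hes5 and Hes6 had the largest differences of opposite sign between the sets of cortex libraries. Hes5 (chr4:154960923-154962371, 3 exons), the main Notch effector of radial glia, was at 13.1 and 10.97 FPKM in EE cortex replicates 4 and 5, against 5.75 and 3.41 FPKM in SH. It rose by 1.25 ± 0.23 (limma, adjusted p = 1.48e-05), and was the only 1 of 8 members to pass where 3.47% of 12556 genes did. In this fit of 2 against 2 libraries the SE of every member lay between 0.21 and 0.23. Such an SE comes almost wholly from the spread pooled over genes, so the p hardly measures the spread of Hes5 between its own libraries. In cortex replicates 1 to 3 Hes5 was at 8.04, 10.4 and 10.9 FPKM in EE, against 13.1, 10.7 and 21.9 FPKM in SH. The highest of these was SH replicate 3, the groups overlapped, and the difference was -0.54 ± 0.25 (limma, adjusted p = 0.414). Hes6 (chr1:91411483-91414038, 4 exons), a relative that is induced during neuronal differentiation and opposes Hes1, was at 37.6 and 24.8 FPKM in EE replicates 4 and 5, against 22.4 and 18.7 FPKM in SH. In replicates 1 to 3 Hes6 was at 27.9, 26.6 and 31.4 FPKM in EE, against 31.3, 33.9 and 56.5 FPKM in SH. Its differences of 0.56 ± 0.21 and -0.44 ± 0.22 did not pass (limma, adjusted p = 0.111 and 0.414). Hes5, Hes6 and Dll3 were the 3 members separated upwards in EE in replicates 4 and 5, as were 21.7% of all genes. Markers of other cell types also rose there: 3 of 5 tested choroid plexus markers, led by Ttr (2.03 ± 0.21, limma, adjusted p = 3.41e-17), 1 of 7 microglial markers, C1qa (adjusted p = 0.0173), and 1 of 5 red blood cell genes, Hba-a2 (adjusted p = 0.0433), whose near-identical copy Hba-a1 makes its reads uncertain. No meningeal marker passed. The 6 choroid plexus markers summed to 720 and 50.3 FPKM in EE replicates 4 and 5, against 47.7 and 51.0 FPKM in SH, so that EE replicate 4 alone was high. The SE and p of Ttr come from the pooled spread, so they do not measure how far its own EE libraries lie apart. Without EE replicate 4 the Hes5 difference was 1.13 (limma, adjusted p = 3.96e-05), and the part of the other cell types in it was not tested.

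Tested directly, the EE difference in replicates 4 and 5 minus that in replicates 1 to 3 was 1.79 ± 0.40 for Hes5 (limma, unadjusted p = 0.00137, adjusted p = 0.251) and 0.999 ± 0.36 for Hes6 (unadjusted p = 0.0198, adjusted p = 0.251). No gene passed that test (0.0% of 12519, with 2433 at an unadjusted p under 0.05), so the sets were not shown to differ. The libraries also differed in their trends with transcript length. Spearman's rho between a library's deviation and transcript length across genes was -0.24 and -0.36 in EE replicates 4 and 5, against 0.46 and 0.27 in SH, and 0.64, 0.64 and 0.44 in EE replicates 1 to 3, against 0.23, 0.28 and -0.76 in SH. Hes5 and Hes6 have the shortest transcripts of the members, at 1273 and 1335 bases, and were highest in SH replicate 3, which had the lowest rho of its set, and in EE replicate 4, which did not, since EE replicate 5 was lower. In hippocampus the lowest rho, -0.48, was in EE replicate 1. There Hes5, at 16.4 FPKM, was among its lower values and Hes6, at 41.3 FPKM, among its higher values. The part of these trends in the Hes5 and Hes6 differences was not tested. With trends on length, GC content and mean level removed, Hes5 in replicates 4 and 5 differed by 0.93 and did not pass (limma, adjusted p = 0.139), Hes6 differed by 0.20, and no gene passed. Without cortex SH replicate 5 the Hes5 difference was 0.94 (adjusted p = 0.376), and over 11 alternatives the adjusted p ranged from 3.22e-08 to 0.376. Without cortex EE replicate 5, Hes6, Insm1 and Dll3 passed in this set (adjusted p = 0.000559, 0.00699 and 0.00926), and the count of all genes passing was 436 with all 4 libraries, 994 without EE replicate 4, 1871 without EE replicate 5, 33 without SH replicate 4 and 23 without SH replicate 5. In hippocampus Hes5 was at 16.4, 17.0 and 22.5 FPKM in EE and at 14.1, 16.5 and 22.2 FPKM in SH, and Hes6 at 35.4 to 42.3 FPKM in EE, against 34.8 to 43.0 FPKM in SH, both with overlapping groups.

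**Figure D3:**
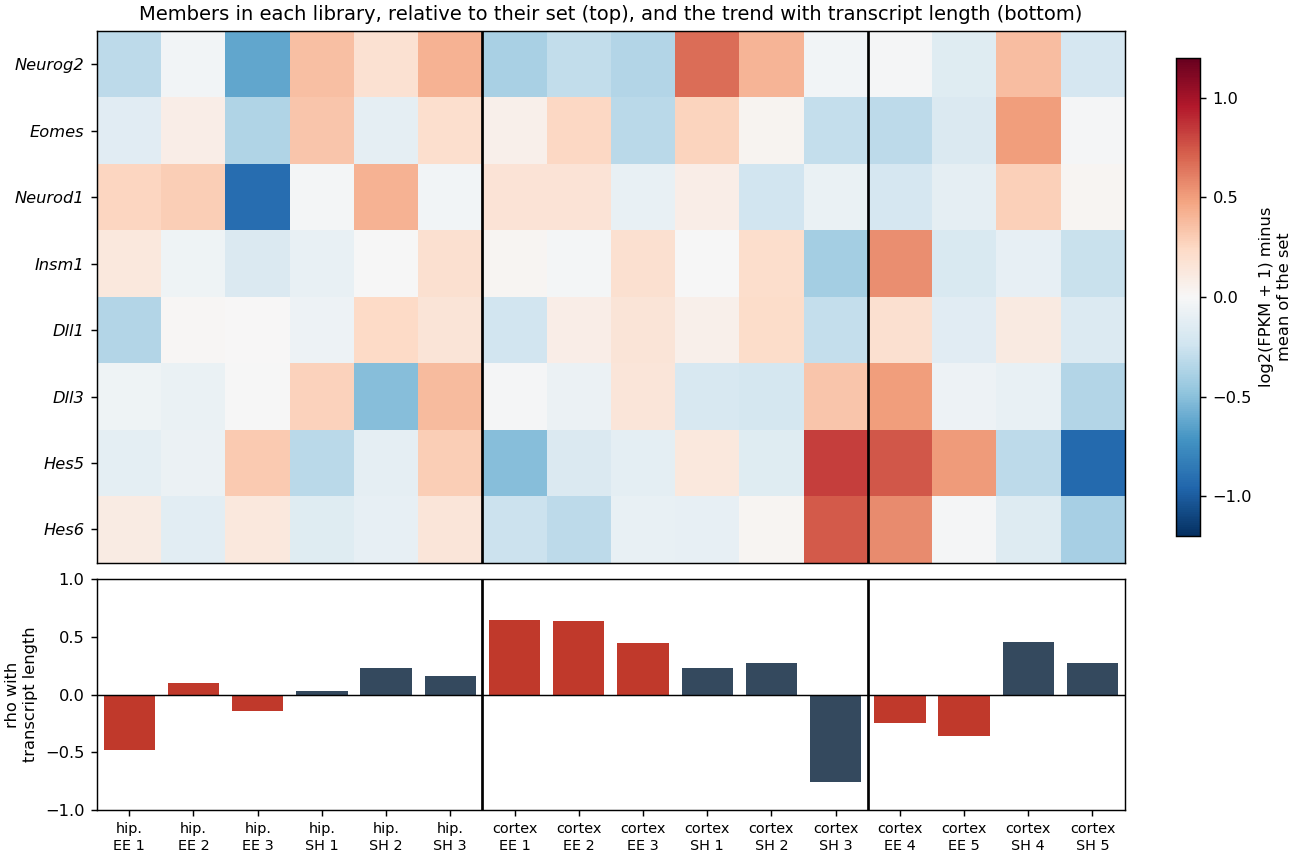
Top, each member's log2(FPKM + 1) in each library minus its mean over the set (red above, blue below), with black lines between hippocampus, cortex replicates 1 to 3 and cortex replicates 4 and 5. Bottom, Spearman's rho across genes between the library's deviation and transcript length, where Hes5 and Hes6 are highest in cortex SH 3, the library with the lowest rho of -0.76.

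Read across the 16 libraries as deviations from the mean of each set, the members split into groups. Hes5 and Hes6 had the highest Pearson r, 0.87, followed by Hes6 and Dll3 at 0.65, Neurog2 and Eomes at 0.62, Hes5 and Dll3 at 0.58, and Insm1 and Dll1 at 0.54. Eomes ran against Hes6 (r = -0.54) and Hes5 (r = -0.48). These values come from shared libraries and share each library's length trend, so they are descriptions only. The genes whose deviations were most like the mean of the 8 members, among 8575 candidates with a mean of at least 5 FPKM, were Apba3 (r = 0.80), Tcf3 (0.78), Srsf2 (0.76), Akt1s1 (0.75), Kank3 (0.75) and Tbcc (0.74). Tcf3 encodes an E protein, the partner with which proneural factors bind DNA.

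The second comparison sets hippocampus against cortex in replicates 1 to 3, with EE and SH libraries fitted together. Each tissue is its own set of tables here, so differences of tissue and of set cannot be told apart. Of the 8 members, 6 rose in hippocampus, where 24.6% of 13138 genes rose, 10.8% fell and 35.4% changed in either direction. Genes of neuronal commitment differed most and the ligand Dll3 and the differentiation gene Hes6 least. The members' median difference was 0.91, against 0.09 over all genes. With median-of-ratios scaling the median over all genes was -0.03 and the split of passing genes was 2164 higher and 2224 lower in place of 3226 and 1423, and 5 of the 6 members still passed.

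Neurod1 had the largest difference of the members, with 23.5, 49.3 and 60.8 FPKM as the lowest, median and highest of 6 hippocampus libraries, against 7.14, 8.56 and 9.75 FPKM in cortex. Its mean was 5.46 times that of cortex (2.27 ± 0.19, limma, adjusted p = 5.66e-06). Neurog2 had 6.79, 11.7 and 15.0 FPKM in hippocampus, against 1.49, 1.93 and 4.19 FPKM in cortex, 4.74 times the cortex mean (1.88 ± 0.13, limma, adjusted p = 9.92e-07). Eomes, with 19.4, 25.0 and 32.0 FPKM in hippocampus and 4.13, 5.62 and 6.72 FPKM in cortex, was at 4.65 times the cortex mean (2.03 ± 0.14, limma, adjusted p = 9.92e-07). Every hippocampus library lay above every cortex library for these 3 genes and for Insm1 and Dll1, 5 of 8 members, as for 14.9% of all genes.

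Insm1 averaged 19.4 ± 1.94 FPKM in hippocampus and 8.39 ± 1.36 FPKM in cortex, and Dll1 8.73 ± 1.31 FPKM in hippocampus and 4.999 ± 0.83 FPKM in cortex (SD, n = 6 each). Both rose, Insm1 by 1.13 ± 0.11 and Dll1 by 0.70 ± 0.12 (limma, adjusted p = 1.55e-05 and 0.000811). Hes5 averaged 18.1 ± 3.43 FPKM in hippocampus and 12.5 ± 4.87 FPKM in cortex, with overlapping ranges, and passed narrowly at 0.55 ± 0.19 (limma, adjusted p = 0.0371). That call was lost under median-of-ratios scaling (0.42, adjusted p = 0.133), by limma-voom (adjusted p = 0.0517), and on leaving out any 1 of 9 of the 12 libraries, namely cortex EE replicates 1, 2 and 3, cortex SH replicates 1 and 2, hippocampus EE replicates 1, 2 and 3 and hippocampus SH replicate 3, with adjusted p from 0.0601 to 0.0834. Hes6 averaged 38.8 ± 3.79 FPKM in hippocampus and 34.6 ± 11.05 FPKM in cortex and did not pass (0.20 ± 0.15, limma, adjusted p = 0.31), but did without cortex SH replicate 3 (0.35, adjusted p = 0.00593). Dll3 averaged 3.45 ± 0.93 FPKM in hippocampus and 2.88 ± 0.58 FPKM in cortex and did not pass (0.18 ± 0.15, limma, adjusted p = 0.378).

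By level, the order in hippocampus was Neurod1, Hes6, Eomes, Insm1, Hes5, Neurog2, Dll1 and Dll3, from 47.1 to 3.45 FPKM in the mean. In cortex of replicates 1 to 3 it was Hes6, Hes5, Neurod1, Insm1, Eomes, Dll1, Dll3 and Neurog2, from 34.6 to 2.40 FPKM. Neighbours in these orders overlapped in range except Hes6 over Eomes and Dll1 over Dll3 in hippocampus, and Hes6 over Hes5 and Dll1 over Dll3 in cortex. In the mean, Neurog2 stood above both ligands in hippocampus and below both in cortex.

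**Figure D4:**
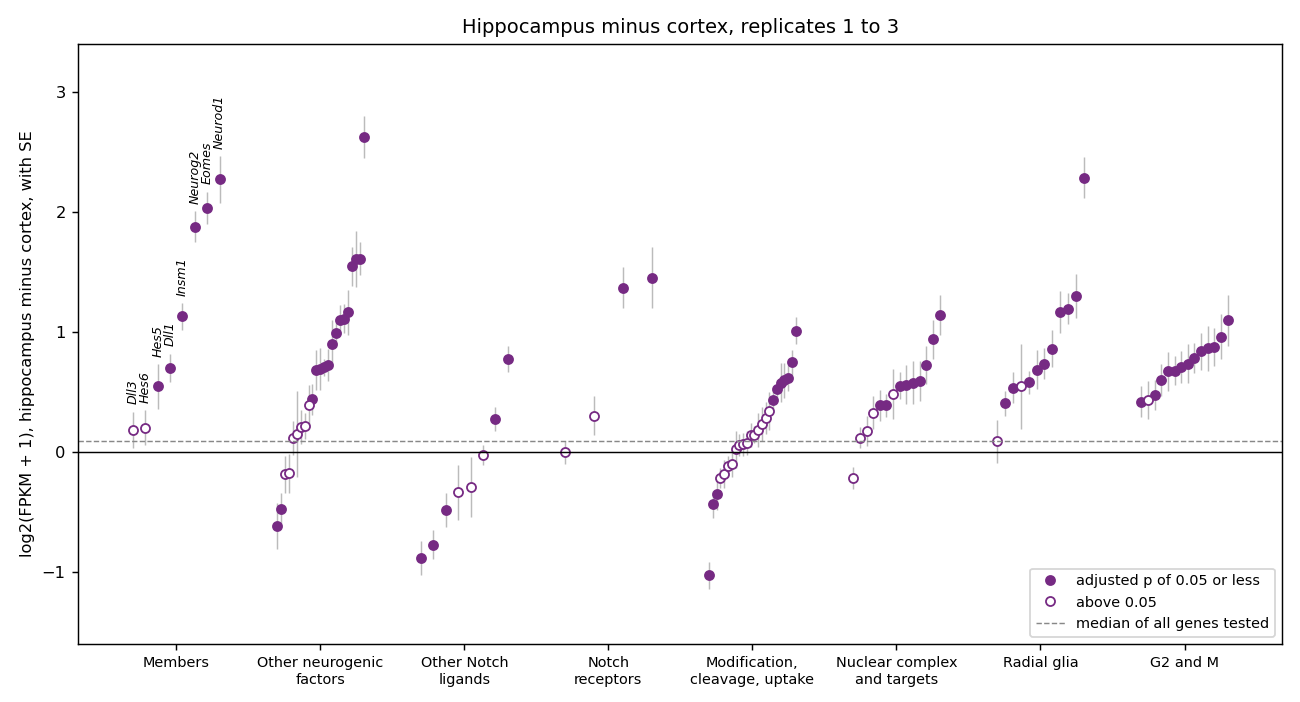
Hippocampus minus cortex difference in log2(FPKM + 1), with SE, of the 8 members (named) and of 7 other gene lists, each gene 1 point (filled where it passed). The dashed line is the median over all genes, 0.09; Neurod1, Eomes and Neurog2 lie at 1.88 to 2.27, and the Notch receptors that passed at 1.37 and 1.45.

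The rest of the pathway was read in lists written with earlier results of these data known. Of the 4 Notch receptors, 2 rose in hippocampus: Notch1, at 15.2 ± 1.28 FPKM in hippocampus and 5.51 ± 1.81 FPKM in cortex, and Notch2, at 15.8 ± 6.19 FPKM in hippocampus and 5.04 ± 1.60 FPKM in cortex (SD, n = 6 each). Of 8 other ligands, 2 rose, near the share over all genes, and 3 fell in hippocampus. Dner, a ligand of postmitotic neurons, fell to 52.3 ± 11.1 FPKM in hippocampus, against 97.3 ± 17.2 FPKM in cortex. Dll4 rose by 0.77 ± 0.11, at 3.29 ± 0.63 FPKM in hippocampus and 1.52 ± 0.45 FPKM in cortex. By limma-voom on recovered reads Dll4 differed by 0.11 and did not pass (adjusted p = 0.63). Reads were recovered apart in each set, up to a factor common to the gene, so that value may not measure the tissue difference. Of 24 genes that modify, cut or internalise receptors and ligands, 7 rose and 3 fell, near the shares over all genes (24.6% rose and 10.8% fell), with Lfng, which adds sugars to Notch, at 25.8 ± 4.08 FPKM in hippocampus and 12.2 ± 1.26 FPKM in cortex. Of 14 nuclear partners and targets, 9 rose and none fell, among them Sox9 (1.14 ± 0.16) and Rbpj itself (0.55 ± 0.11). Of 23 tested neurogenic genes, 14 rose and 2 fell, with Nhlh1, a helix-loop-helix factor of newborn neurons, at 7.54 ± 2.28 FPKM in hippocampus and 0.35 ± 0.18 FPKM in cortex. Cell cycle and radial glia genes rose with them, 13 of 14 genes of G2 and M phase and 10 of 12 of radial glia. All 9 choroid plexus markers had positive differences (median 2.13) and 2 passed, near the share over all genes. The 6 with a value in every library summed to 45.8 to 17063 FPKM in hippocampus (median 2642). In cortex of replicates 1 to 3 these 6 summed to 26.5 to 300 FPKM (median 119). Other lists fell in hippocampus: 8 of 9 tested genes of ventral progenitors and interneurons, among them Dlx5 (-1.16 ± 0.11) and Gad1 (-1.01 ± 0.14), and 4 of 8 meningeal markers, among them Ptgds (-3.02 ± 0.80) and Slc6a13 (-1.59 ± 0.37). The part of tissue composition in the members' differences was not tested.

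Between housings these lists held few calls. No Notch receptor passed in any set: Notch1 differed by 0.02 ± 0.11 in hippocampus, by 0.58 ± 0.27 in cortex replicates 1 to 3 and by -0.32 ± 0.23 in cortex replicates 4 and 5. In cortex replicates 4 and 5, Id1, a repressor partner of helix-loop-helix factors, rose to 27.5 ± 7.24 FPKM in EE, against 9.22 ± 2.23 FPKM in SH (SD, n = 2 each; 1.47 ± 0.21, limma, adjusted p = 6.2e-09). Id1 was at 48.4 ± 3.59 FPKM in EE, against 32.6 ± 7.48 FPKM in SH hippocampus (n = 3 each), and at 23.9 ± 2.48 FPKM in EE, against 28.3 ± 6.37 FPKM in SH in cortex replicates 1 to 3, and did not pass there. Spen, a corepressor that works with RBPJ, and Sstr2, a somatostatin receptor of newborn neurons, fell in EE in cortex replicates 4 and 5, by 0.77 ± 0.22 and 0.74 ± 0.22. As for Hes5, the SE and p of Id1, Spen and Sstr2 in that set rest on the spread pooled over genes. Without cortex SH replicate 4 neither Spen (-0.41) nor Sstr2 (-0.70) passed, without cortex SH replicate 5 none of the 3 did, and likewise with the trends on length, GC content and mean level removed (limma, adjusted p = 0.1 for Id1, 0.349 for Spen and 0.138 for Sstr2).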

How the data were processed

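RNA was taken with Trizol and made into libraries with a NEBNext Ultra kit, per the labels' protocols. Build mm10 and the tools HISAT2 2.0.4, edgeR, cutadapt 1.9, DESeq2 and StringTie 1.3.4d are named, with no roles, per the submitters' processing notes. The authors deposited 1 table of FPKM values per library, and 23 symbols turned into dates were left out. Counting by strand is not given in the sources used here, so overlapping antisense transcripts of Eomes, Neurod1, Hes5 and Dll1 cannot be told apart from these genes. A whole-read solution was found from the FPKM steps for 99.98% or more of genes in each set (tolerance 0.003). Each set was solved apart and the smallest solution kept, so reads are known only up to a factor common to the gene in its set. The read numbers and depths are therefore lower bounds, and in limma-voom between tissues such a factor can shift a gene's difference.

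Each fit took genes that every one of its libraries lists and that average at least 1 FPKM, and tested log2(FPKM + 1), which understates changes of low genes, with limma 3.58.1 in R 4.3.3 (moderated fit with a mean trend, two-sided, Benjamini-Hochberg). The fit over all cortex libraries also modelled which set of replicates a library came from, and the tissue fit modelled housing. Scripts were tested on simulated data. Alternatives were median-of-ratios scaling, other filters (none, 5 FPKM) and a pseudocount of 0.1, a replicate block, limma-voom on recovered reads, leaving out each library, and, added after seeing the data, removal of trends on length, GC content and mean level, a test of the difference between the cortex sets, and a block of 2 libraries of the same housing and number in the tissue fit. The members and gene lists were chosen with earlier results of these data known. Named genes are all members, up to 3 genes per list and comparison with the smallest p, and the 6 genes most like the members' mean; names beyond these were picked with values known. Some listed genes are not reported here and are in no list count. Gene positions are from GENCODE M21 and promoters from RefSeq.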

Additional observations from a re-analysis of the deposited data

Results flagged for a closer look

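The EE minus SH difference of Hes5 in cortex replicates 4 and 5 minus that in replicates 1 to 3 was 1.79 on the log2(FPKM + 1) scale, and that of Hes6 was 0.999. Both are listed because every EE library lay above the SH mean in replicates 4 and 5 and below the SH mean in replicates 1 to 3. Neither difference between the sets passed after adjustment over all genes (limma, adjusted p = 0.251 for each).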

How the results depend on the processing

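The counts of genes passing kept within 1.5 times of their value except as follows. Over all cortex libraries 1 gene passed, 0 with no term for the set, 6 with trends on length, GC content and mean level removed, and 1 to 3 when 1 library was left out (3 without cortex SH replicate 3). In cortex replicates 1 to 3 the count was 0, and 0 to 12 when 1 library was left out (12 without SH replicate 3). In cortex replicates 4 and 5 it was 436, 0 with the trends removed, 769 with the replicate block, and 23 to 1871 when 1 library was left out, and limma-voom split 388 calls into 109 higher and 279 lower, against 211 and 225. Between tissues it was 4649, and 2734 among genes of at least 5 FPKM. The labels do not say whether a shared replicate number marks a shared source, and the correlations did not meet the bar for treating the libraries as paired (every pair over 0.1): same-numbered EE and SH libraries correlated at 0.40, 0.09 and 0.40 in cortex replicates 1 to 3, at -0.10, -0.56 and 0.44 in hippocampus, and at 0.14 in cortex replicates 4 and 5, where 2 libraries a group give 1 value, and with the block Hes6 passed (adjusted p = 0.0463) in cortex replicates 4 and 5. With the trends removed, differences near 0 turned sign: Neurod1 (0.014) and Hes6 (0.0028) over all cortex libraries and Eomes (0.015) in replicates 1 to 3. Leaving out 1 library also turned signs. Over all cortex libraries the ranges were -0.22 to 0.15 for Hes6, -0.053 to 0.087 for Dll1, -0.094 to 0.057 for Neurod1 and -0.081 to 0.43 for Hes5. In replicates 1 to 3 they were -0.14 to 0.12 for Dll1, -0.16 to 0.14 for Eomes, -0.0497 to 0.22 for Dll3 and -0.041 to 0.27 for Insm1. In replicates 4 and 5 they were -0.0012 to 0.74 for Insm1, -0.11 to 0.22 for Dll1 and -0.45 to 0.12 for Neurog2, whose sign turned without SH replicate 4. Where 1 library was left, it is assumed to vary like the other group. The cause of these changes was not tested. Low read numbers limit Neurog2 and Dll3 in cortex, and Hes5 had few recovered reads in SH of cortex replicates 4 and 5.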
